A study of Mus musculus with 30 samples.

Results

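The comparison of Mettl14 knockout with wild-type mouse embryonic stem cells rested on 6 lists of called N6-methyladenosine (m6A) peaks, 3 from each line, out of 15 lists in a series of 5 lines. Both lines carried the C57BL/6 label and were grown on gelatin in medium with serum and leukemia inhibitory factor. The wild type (WT) is unmodified as far as the labels say, and the knockout (KO) lacks Mettl14. The labels used here do not say how the knockout was made or whether it is 1 clone. Each list came from RNA immunoprecipitated with a polyclonal m6A antibody after chemical fragmentation, and a matching input library exists for each. The unit of a list is a bin of 100 nt within a gene. The 6 lists held 46873 distinct bins in 11712 genes, of 62091 bins in 13765 genes over the whole series.

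METTL3 carries the catalytic site and METTL14 holds the RNA, and the pair forms the core of the complex that places m6A on messenger RNA during transcription. The mark is known to lie mostly around stop codons and in 3′ untranslated regions, is bound by reader proteins of the YTH family and often shortens the life of the transcript. In embryonic stem cells, messages of pluripotency regulators are among its known carriers. A few marks have other enzymes: METTL16 methylates hairpins of the Mat2a message, and PCIF1 methylates a first transcribed adenosine next to the cap, where the modified base is also bound by m6A antibodies.

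A lost bin is one present in every WT list and absent from every KO list, a gained bin the reverse, and a kept bin one present in all 6. Bins called in all 3 WT lists are termed stable WT bins, whatever their fate. The lists hold no read counts and no expression values. Depth is therefore unknown, and a missing call cannot be told apart from weaker enrichment, a scarcer transcript or fewer reads. The labels do not say whether the 3 lists of a line came from separate cultures, so every p-value measures only the spread between these libraries. The knockout itself cannot be checked here, since Mettl14 had no bin in any of the 6 lists.

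KO cells had far fewer called peaks than WT cells. The WT lists held 23164, 22668 and 22217 peaks, and the KO lists 6328, 8411 and 8593. The groups did not overlap, and the KO mean of 7777 ± 1258 (SD, n = 3) was 65.7% below the WT mean of 22683 ± 474 (two-sided exact permutation test, p = 0.1, the smallest that 3 against 3 allows). Genes with a peak fell less in proportion, from 7788, 7896 and 7854 in WT to 3697, 4690 and 4733 in KO (exact p = 0.1).

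Genes that still had a peak carried fewer of them. The mean number of bins per gene with a peak was 2.89 ± 0.0749 in WT and 1.77 ± 0.0547 in KO (SD, n = 3). Genes with 5 or more bins numbered 1217 ± 63.6 per WT list and 147 ± 36.9 per KO list. Runs of adjacent bins were also shorter. Single bins made up 69.4% ± 1.39 of runs in WT and 87.5% ± 1.02 in KO, and runs of 5 or more bins fell from 285 ± 48.1 to 21.7 ± 2.08 per list. The lists of the 2 lines did not overlap in any of these 4 measures (exact p = 0.1 for each).

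**Figure D1:**
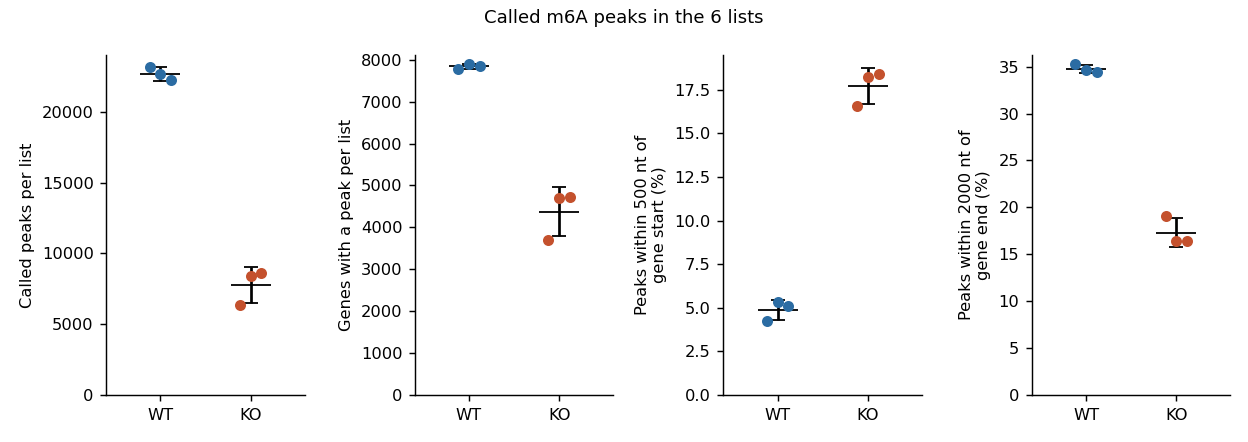
Called peaks, genes with a peak, and the share of peaks near the start and the end of genes, for each of the 3 WT and 3 KO lists (points), with mean and SD (bars). KO lists have 6328 to 8593 peaks against 22217 to 23164 in WT, a larger share near gene starts and a smaller share near gene ends.

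Of 11324 stable WT bins, 9081 were lost (80.2%), 1081 were kept in all 3 KO lists, and 654 and 508 were called in 1 and 2 KO lists. Of 2352 bins called in all 3 KO lists, 615 were gained (26.1%). Recall between replicates shows how often a call repeats in 1 more list of the same line. It is another measure than these shares, which need absence from all 3 lists of the other line. A bin called in the other two WT lists was found again in the remaining WT list in 79.6% to 81.4% of cases. In KO the same recall was 76.2% and 76.4% for replicates 2 and 3 and 60.0% for replicate 1, which had the fewest peaks. When each list was cut to the same length, keeping the 6328 peaks with the lowest p-values, 2491 of 3177 stable WT bins were lost (78.4%), while 1107 of 1918 bins called in all KO lists were gained (57.7%). Leaving out KO replicate 1, 2 or 3 raised the number of gained bins to 1387, 987 and 989, since a bin then needs 2 KO lists. The share of stable WT bins lost was thus nearly the same at equal list length, and the share of KO bins counted as gained was larger. The cut drops most WT calls, so the bins gained there include bins called in the WT lists as deposited.

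Strong WT bins were lost at least as often as weak ones. The authors' enrichment value, a score whose scale is not given, was used only to rank bins within a list. Stable WT bins were divided into 10 classes of equal size by mean rank. In the weakest class 62.8% were lost and 19.6% kept. In class 9 86.7% were lost and 6.10% kept, and in the strongest class 84.3% and 6.27%. The median within-list percentile of kept bins was 30.4 to 34.8 over the WT lists, against 48.9 to 49.4 for lost bins.

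Lost and kept bins lay in different places along genes. Positions were measured on RefSeq gene spans of the same build, for bins whose gene matched by symbol. Of 8096 lost bins so placed, 39.9% lay within 2000 nt of the gene end and 1.05% within 500 nt of the gene start. Of 889 kept bins, 160 lay near the end and 171 (19.2%) near the start. Gained bins were the most shifted, with 13.4% of 560 near the end and 25.4% near the start. The median position was 92.7% of the way along the gene for lost bins, 54.2% for kept bins and 43.8% for gained bins.

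Whole lists showed the same shift. Peaks within 2000 nt of a gene end made up 35.2%, 34.6% and 34.5% of placed peaks in WT and 19.1%, 16.4% and 16.4% in KO. Peaks within 500 nt of a gene start made up 4.23%, 5.33% and 5.10% in WT and 16.5%, 18.2% and 18.4% in KO. Neither share overlapped between the lines (exact p = 0.1 for both). The number of peaks near gene starts was 977 ± 99.1 per WT list and 1228 ± 265.1 per KO list, and these overlapped (exact p = 0.3). The number near gene ends fell from 6966 ± 257 to 1178 ± 99.2, without overlap (exact p = 0.1). The mean number near gene starts was thus not lower in KO, while the number near gene ends was. Most WT peaks lay away from gene starts, so most missing peaks had to lie there too.

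**Figure D2:**
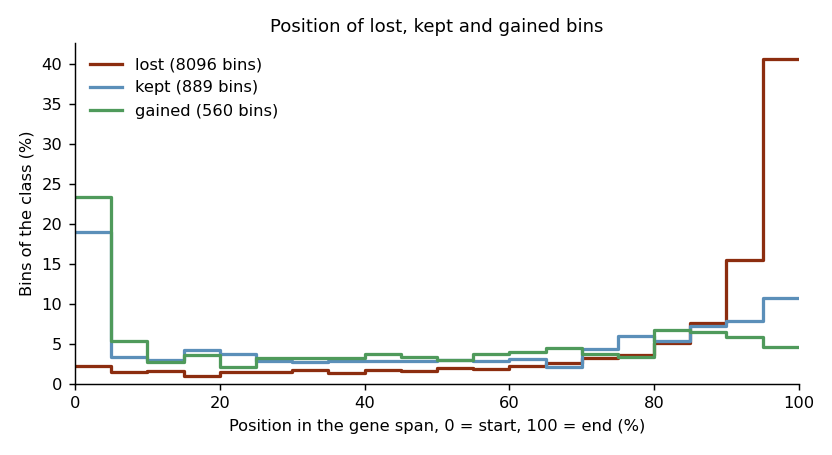
Share of lost, kept and gained bins (vertical, %) by position in the RefSeq gene span (horizontal, from start at 0 to end at 100%, in steps of 5%). Lost bins pile up at the end of the gene, and kept and gained bins have their highest share at the start.

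Bins near gene starts were a minority of what remained, 171 of 889 placed kept bins within 500 nt. The sequences below span the annotated start site of 8 genes whose first bin was kept, gained or lost, with 15 bases before it and 15 bases from it on, in lower case with the first annotated base in capitals. They come from RefSeq (GRCm38.p6). The genes were picked by the distance of the bin midpoint from the start, 50 nt in each, and then by symbol.
Mtrex, kept, chr13:112927366-112927395, minus strand: ttgggtaggagggagAttcggtctcagagt
Pfn1, kept, chr11:70654636-70654665, minus strand: aataaaaatctagagGggggggggaggagc
Psmd2, kept, chr16:20651637-20651666, plus strand: gaggacaacgcgcgtGgccttctgggaaaa
Rps27l, kept, chr9:66946071-66946100, plus strand: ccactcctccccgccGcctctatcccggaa
Atg101, gained, chr15:101284286-101284315, plus strand: gcgcgccgctcaggcAgaggaagcggaggc
Nudt16l1, gained, chr16:4939096-4939125, plus strand: gggtcgcgcatgctcGtttgggcagtgggc
Psmc6, lost, chr14:45329809-45329838, plus strand: gcccttcccggcatcCcctatgagcgacgg
Upp1, lost, chr11:9118088-9118117, plus strand: ggatactgaaaggacAcagtttacaacagc

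Genes with a bin midpoint within 150 nt after the start were classed only by the bin nearest to 50 nt after it. The first annotated base was A in 28.2% of 71 genes where this nearest bin was kept. It was A in 39.6% of 53 genes where the nearest bin was gained and in 57.1% of 21 where it was lost. Of all 8272 genes with a called bin and a start in the table, 27.7% had A. Those 8272 genes need no bin near the start, and their start was not picked by a bin. They are therefore not a matched reference for the classed sets. The larger sets differed less. The share was 30.9% of 993 genes where that bin was called in any KO list. It was 33.0% of 327 genes where only WT lists called it. The letters GGAC, searched in the first 50 bases on the gene's strand, were present in 18.3% of the kept, 28.3% of the gained and 28.6% of the lost set, against 20.3% of all 8272. They were present in 19.9% of the 993 genes and 25.7% of the 327. These shares describe annotated starts, which need not be the starts used in these cells. Which modified base the start bins hold was not tested.

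Most genes with stable WT bins lost all of them, but most of those genes still had a peak in at least 1 KO list. Of 4854 genes with at least 1 stable WT bin, 1462 (30.1%) had no bin in any KO list. Another 2031 (41.8%) lost every stable WT bin and still had other bins in at least 1 KO list. A further 667 (13.7%) lost some stable bins and not others, and 694 (14.3%) lost none. Of the 2553 genes with 2 or more stable WT bins, where a partial loss is possible, 26.1% were partial. Of the 368 genes with 5 or more, 178 (48.4%) were partial, with a median of 76.9% of their stable bins lost, and 57 (15.5%) had no KO bin.

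Long methylated stretches were trimmed rather than erased more often than short ones. Single stable bins were lost in 77.4% of 5291 cases. Runs of 5 or more adjacent stable bins numbered 111, of which 58 (52.3%) were wholly lost and 43 (38.7%) lost part. Runs of 2 bins were wholly lost in 79.5% of cases and partly in 10.2%. A longer run has more bins that can remain, and these shares were not tested against that.

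Within the partly losing genes, the bins still called in at least 1 KO list were more often nearer the start than the lost ones. In 417 of 618 such genes with known positions (67.5%), bins still called in KO lay on average nearer the gene start than the lost ones. The median difference in distance from the start, called minus lost, was -350 nt. The bins still called were not the stronger bins: they had the higher mean WT percentile in 304 of 667 genes (45.6%). Genes are not independent replicates, so these shares carry no test.

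**Figure D3:**
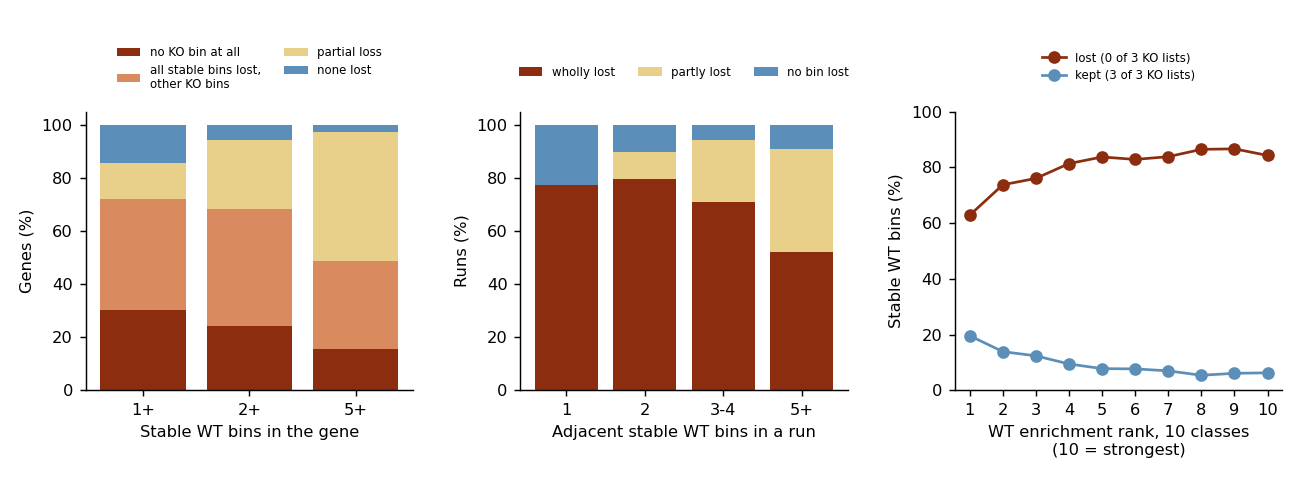
Left, fate of genes with at least 1, 2 or 5 stable WT bins (bars, % of genes). Middle, fate of runs of adjacent stable WT bins by run length (bars, % of runs). Right, stable WT bins lost or kept in KO in 10 classes of WT enrichment rank. Partial loss rises to 48.4% of genes with 5 or more stable bins, and the weakest class of bins has the smallest lost share, 62.8%.

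Per gene, bins were compared as log2(bins per list + 1) with limma over 7199 genes called in at least 3 of the 6 lists, with Benjamini-Hochberg adjustment and a threshold of 0.05. In KO 3565 genes were lower (49.5%) and 156 were higher (2.17%). The median log2 difference over the 7199 genes was -1. With lists of equal length it was -0.14 over 3865 genes, of which 921 were lower and 699 higher, so that the lower share of calls went from 95.8% to 56.9%. Equal length makes the list totals alike, which by itself moves the median up and the calls toward balance. The cut also counts the calls outside it as absent, mostly in WT. Values at equal length below are limited in the same way. All log2 differences below are on the log2(bins + 1) scale of the lists as deposited and stand against that median of -1. Counts of lower and higher members of a gene list stand against 49.5% and 2.17%. At equal list length they stand against 921 and 699 of 3865. With 1 WT list left out 1141 to 1185 genes were lower and 42 to 49 higher, and with 1 KO list left out 56 to 74 were higher. These fits still asked for calls in 3 lists. Genes called only in WT could thus not be tested without a WT list, nor genes called only in KO without a KO list. The fall in these counts is therefore partly set by the filter. Of the 3565 lower genes, 1775 had no bin in any KO list and 1790 still had 1 or more, 422 of them in all 3 KO lists. Having a KO bin is not the partial loss defined above, since that bin need not be a stable WT bin. The 1775 without one are all the genes called in every WT list and no KO list. Of the 156 higher genes, 94 had no bin in WT. Such genes met the filter through 1 line only, and even 1 bin per WT list against none passed (219 genes). Their calls restate presence and absence and are no separate result.

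Whole-gene loss by the rule covered 1775 of 5631 genes called in all 3 WT lists (31.5%), and 94 of 1923 genes called in all 3 KO lists were gained (4.89%). At equal list length 584 of 2125 genes were lost (27.5%) and 504 of 1710 gained (29.5%). The genes gained there include genes called in the WT lists as deposited. Sipa1l2, a GTPase-activating protein, had 15, 13 and 14 bins in WT and none in KO (log2 difference -3.90 ± 0.25 SE, limma adjusted p = 0.000223). Its bins lay on chromosome 8 between 125464364 and 125538163 (GRCm38). Rictor, the defining subunit of mTORC2, had 13, 13 and 12 bins between 6786582 and 6797581 on chromosome 15, and 10 of 10 stable bins were lost. Its 6 stable bins from 6796582 to 6797281 had WT percentiles up to 98, so neighbouring bins among the strongest in their lists were absent from KO.

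Igf1r, the insulin-like growth factor receptor, had 13, 14 and 11 WT bins (chromosome 7, 68004028 to 68232727). Orc3, of the origin recognition complex, had 10, 10 and 9 (chromosome 4, 34590097 to 34592196). Mki67, whose protein coats mitotic chromosomes and marks proliferating cells, had 10, 9 and 17 (chromosome 7, 135689885 to 135708284). The transcriptional repressor Trps1, the heparan sulfate polymerase Ext1 and the phosphoinositide kinase Pikfyve had means of 12.3, 12 and 11.3. None of these had a bin in any KO list. Their log2 differences lay between -3.77 and -3.41 in the limma fit. Choosing lost genes fixes that direction, so it is no separate result.

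Other genes fell steeply and still had at least 1 bin in every KO list. Of the 8 described here, Aars alone had a bin called in all 6 lists, and Fem1b, Foxo1, Aff1 and Chd1 lost all their stable bins. Ankrd11, a chromatin regulator, had 24, 27 and 23 bins in WT and 2, 2 and 3 in KO (chromosome 8, 122883823 to 122916022). This is a log2 difference of -2.96 ± 0.23 (limma adjusted p = 0.000244), and 14 of its 16 stable bins were lost. Abl2, a tyrosine kinase, had 17, 14 and 16 against 2, 2 and 1. Its 11 lost bins lay 82646 to 84246 nt from the start, and its single gained bin lay 346 nt from the start (chromosome 1, 156558887 to 156558986).

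Fem1b, a substrate receptor of a ubiquitin ligase, lost 9 of 9 stable bins within 3000 nt on chromosome 9 (62794622 to 62797621). Its bins numbered 11, 9 and 10 in WT and 1, 1 and 2 in KO. In the middle of that stretch the bin from 62796222 to 62796321 was present in every KO list and in only 2 WT lists. Foxo1, a transcription factor of insulin signalling, had 9, 11 and 8 against 1, 1 and 1, and all 6 of its stable bins were lost. Aff1, of the super elongation complex, had 12, 8 and 12 against 2, 1 and 1 (log2 difference -2.33), and Ccser2 had 8, 10 and 10 against 1, 1 and 1 (-2.36). Each of these fell in the limma fit. Foxo1 (-0.39) and Chd1 (-0.47) did not pass with lists of equal length. Aars and Chd1 also met the rule, at -2.83 and -2.74, but 8 of 16 and 17 of 29 of their bins lie in another gene too, so their values are uncertain.

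Some transcripts had many bins in all 6 lists. Akap12, a kinase-anchoring scaffold, had 49, 46 and 51 bins in WT and 21, 24 and 28 in KO (chromosome 10, 4266381 to 4359380), a log2 difference of -0.98 ± 0.15 (limma adjusted p = 0.00130). Of its 44 stable bins 17 were lost and 21 kept. The lost bins lay closer to the gene end, at a median of 2041 nt from it against 5241 nt for the kept ones. Srrm2, a splicing factor of nuclear speckles, had 70, 61 and 71 against 41, 27 and 42 (-0.88 ± 0.18, limma adjusted p = 0.00456), with 24 of 57 stable bins lost and 20 kept. Srrm2 did not pass with lists of equal length (-0.22) or with only scores at or above the median (-0.51). Neither gene passed in the fit over all 15 lists, where the log2 differences are the same and the spread is shared by 5 lines.

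In 3 further transcripts the test was not passed. Malat1, a nuclear long noncoding RNA, had 22, 30 and 31 bins against 21, 22 and 23, and 18 of its 21 stable bins were kept (chromosome 19, 5797191 to 5802690). Ncl, which encodes nucleolin, had 29, 34 and 34 against 27, 30 and 32, with 20 of 25 kept. Hsp90ab1, a cytosolic chaperone, had 13, 17 and 17 against 19, 20 and 22 (chromosome 17, 45567976 to 45573275). All 13 of its stable WT bins were kept. With lists of equal length it was higher in KO (0.62). Fgfr2, a growth factor receptor, was annotated with 254 bins over 2731800 nt, of which 115 lie in another gene, so its counts are uncertain.

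Mat2a, which encodes the enzyme that makes the methyl donor S-adenosylmethionine, kept 4 of its 5 stable WT bins. It had 6, 5 and 7 bins in WT and 4, 5 and 4 in KO, which did not pass (log2 difference -0.39 ± 0.25, limma adjusted p = 0.236). The kept bins adjoin each other between 72432900 and 72433299 on chromosome 6, 153 to 453 nt from the gene end by their midpoints.

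**Figure D4:**
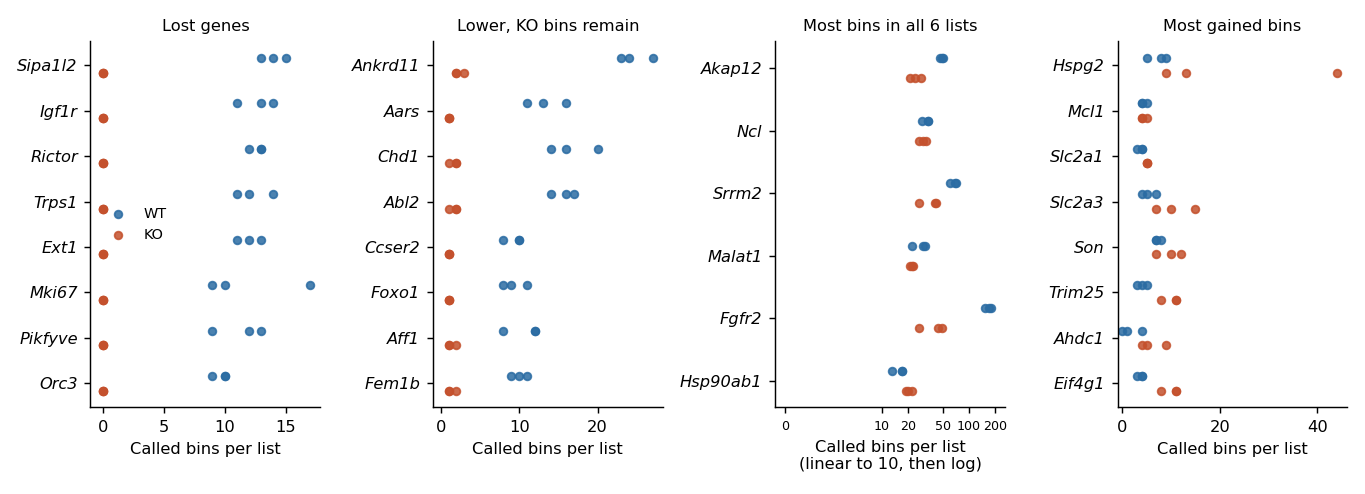
Called bins per list (points, 3 WT and 3 KO lists) in the lost genes with most WT bins, the steepest falling genes that have a bin in every KO list, the genes with most bins called in all 6 lists, and the genes with most gained bins. KO points are at 0 in the first panel and at 1 to 3 in the second, while both lines share ranges in several genes of the last.

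Many gained bins lay in genes that also lost bins. The 519 genes with a gained bin included 298 (57.4%) with a lost bin, and in 239 of the 276 of these with known positions (86.6%) the gained bins lay nearer the gene start. Lost bins were common in general: of the 4854 genes with a stable WT bin, 694 (14.3%) lost none. Over the placed genes with both, the median position along the gene was 89.6% for lost and 43.5% for gained bins. Over all placed bins these medians were nearly the same, 92.7% and 43.8%. Whether the shift within genes goes beyond that of all bins was not tested. A gene's count of bins can therefore stay level while its bins differ.

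Mcl1, an inhibitor of apoptosis, shows the exchange with equal counts: 4, 4 and 5 bins in WT and 5, 4 and 4 in KO. Its 4 stable WT bins, from 95659889 to 95661188 on chromosome 3, were lost, and 4 bins from 95658789 to 95659388, nearer the start, were gained. Slc2a1, a glucose transporter, had 4, 3 and 4 against 5, 5 and 5. It lost 3 of 3 stable bins, 69 to 469 nt from the gene end (chromosome 4, 119136812 to 119137311). It gained bins 116 and 216 nt from its start (119108812 to 119109011) and 2 more between 119133212 and 119133411. Neither gene passed the limma test of bin number. With lists of equal length Mcl1 was higher in KO (1.72).

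Nanog, a core pluripotency factor, had 2, 2 and 2 bins in WT and 4, 2 and 4 in KO, with no bin in common. Both WT bins, from 122713290 to 122713389 and from 122713490 to 122713589 on chromosome 6, lay toward the end of the gene and were lost. The 2 gained bins lay 150 and 250 nt from the start (122707590 to 122707789). Esrrb, a nuclear receptor of the same network, lost all 6 of its stable WT bins while its totals were 9, 8 and 9 in WT and 11, 9 and 8 in KO. Neither passed the limma test. Both were higher in KO with lists of equal length (1.30 and 0.74), while at q under 0.005 Esrrb was lower (-1.66, passed).

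Other genes with many gained bins had higher totals in KO. Trim25, a ubiquitin ligase, had 3, 4 and 5 bins in WT and 8, 11 and 11 in KO (1.14 ± 0.27, limma adjusted p = 0.00712). Its gained bins lay between 89009077 and 89015676 on chromosome 11, and 1 bin 3468 nt from the gene end was kept. Eif4g1, a scaffold of translation initiation, had 3, 4 and 4 against 11, 8 and 11 (1.23 ± 0.25, limma adjusted p = 0.00456, chromosome 16, 20674214 to 20692613). Trim25 did not pass at q under 0.005 (0.09) or with scores at or above the median (0.25).

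The glucose transporter Slc2a3 had 5, 4 and 7 bins against 7, 10 and 15 and passed narrowly (0.85 ± 0.32, limma adjusted p = 0.0495). At q under 0.005 it was nearly level (0.077) and did not pass. It did not pass without WT replicate 2 (0.69), nor with scores at or above the median (0.99), without KO replicate 3 (0.59), with a pseudocount of 0.5 (0.91) or without the limit on the variance. Ahdc1 had 1, 4 and 0 against 5, 4 and 9 (1.64 ± 0.55, limma adjusted p = 0.0334) and did not pass without KO replicate 3 (1.35), with scores at or above the median (1.41), with a pseudocount of 0.5 (2.04) or without the limit on the variance. Hspg2, the basement membrane proteoglycan perlecan, had 8, 5 and 9 against 44, 9 and 13 and did not pass, KO replicate 1 standing far above the other two (log2 difference 1.18 ± 0.50, limma adjusted p = 0.0777). It passed as higher at equal list length (1.94), in the fit over all 15 lists, without the filter on calls, and without WT replicate 1, 2 or 3 or KO replicate 2 or 3. It did not pass without KO replicate 1 (0.54). Son, a splicing protein of nuclear speckles, had 8, 7 and 7 against 7, 12 and 10, with 6 of 6 stable bins lost and 4 gained, and 3 of its 22 bins lie in another gene too. It did not pass, and with lists of equal length it was higher in KO (2.33, passed).

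Messages of the methylation machinery carried m6A calls themselves. Of the 8 members of the writer complex 4 could be tested, and 1 was lower. Wtap, the regulatory subunit that holds the catalytic pair in nuclear speckles, had 5, 5 and 6 bins in WT and 1, 0 and 0 in KO (-2.33 ± 0.35, limma adjusted p = 0.00107). With lists of equal length it did not pass (-0.86). The list lost 8 of 9 stable bins (88.9%), against 80.2% of all stable WT bins, while its summed bins went from 15.3 ± 2.52 to 7.33 ± 2.31 per list (SD, n = 3). At equal list length 0 of 3 were lower and 1, Virma, was higher (1.19). Virma had 3, 6 and 4 bins against 3, 3 and 1, and Rbm15 had 2, 2 and 2 against 1, 1 and 2. Neither passed. Mettl3 had 0, 0 and 0 against 0, 2 and 1.

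Other RNA methyltransferases lost 7 of 7 stable bins, and 3 of 4 tested members were lower. Over all genes, 80.2% of stable WT bins were lost and 49.5% of tested genes were lower. Zcchc4, which methylates ribosomal RNA, had 8, 4 and 9 bins against none. Mettl16 had 3, 3 and 3 against 0, 0 and 1, and Mettl4 had 1, 2 and 2 against none. Among readers and erasers 15 of 24 stable bins were lost (62.5%), and 3 of 13 tested members were lower. These were the demethylase Fto, with 5, 3 and 4 bins against none, the reader Prrc2a with 12, 8 and 9 against 3, 3 and 3, and Igf2bp3 with 4, 1 and 2 against none. The summed bins of readers and erasers went from 40 ± 2.65 to 21.7 ± 8.14 per list, and at equal list length 2 of 9 were lower and 0 higher (median 0.44). Prrc2a did not pass with lists of equal length (-0.49).

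Pluripotency factors lost 51 of 58 stable bins (87.9%), against 80.2% of all stable WT bins. Of 25 tested members 11 were lower (44.0%) and 1 higher, against 49.5% and 2.17% of all tested genes. Their median log2 difference was -0.82. At equal list length 3 of 19 were lower and 4 higher (median 0.39), against 921 and 699 of all 3865 tested genes. Il6st, the signalling receptor for leukemia inhibitory factor, had 8, 8 and 8 bins in WT and none in KO (-3.17 ± 0.26, limma adjusted p = 0.000244). Tbx3 had 4, 4 and 4 and Socs3, a feedback inhibitor of that receptor, 5, 4 and 3, both with none in KO. Sox2 had 7, 5 and 7 against 3, 0 and 2 (-1.67 ± 0.49, limma adjusted p = 0.0177). Sox2 lost 3 of 5 stable bins. It did not pass with lists of equal length (-0.06), with scores at or above the median (-0.33) or without the limit on the variance. Klf4 had 2, 1 and 3 against 0, 2 and 3 and did not pass (-0.33 ± 0.52, limma adjusted p = 0.614). Pou5f1 had a bin only in KO replicates 2 and 3, and Myc had 0, 1 and 0 against 1, 0 and 0, so neither was tested.

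Signalling genes of the TGF-beta, FGF and Wnt pathways lost 128 of 172 stable bins (74.4%), but 104 of those 172 are assigned to Fgfr2 and uncertain. Of 33 tested members, 19 were lower (57.6%). Over all tested genes 49.5% were lower, which is the share for the other lists here too. Sos1, an exchange factor of Ras signalling, had 8, 6 and 6 bins against none, and the BMP receptor Bmpr2 had 7, 4 and 4 against none. Histone methylation and Polycomb genes lost 89 of 127 stable bins (70.1%), with 22 of 34 lower. Kmt2c, a histone methyltransferase, fell from 20, 12 and 10 to 1, 0 and 2, and the demethylase Kdm3a had 5, 3 and 3 against none. Kmt2c did not pass with lists of equal length (-0.14) or with scores at or above the median (-1.13). Chromatin remodelling and DNA methylation genes lost 84 of 105 (80.0%), with 14 of 25 lower, among them the acetyltransferase Crebbp with 8, 9 and 10 against 1, 0 and 0. Of 22 members of that list tested at equal list length 3 were lower and 6 higher. The counts at equal length were 9 lower and 2 higher of 22 for the signalling list, and 4 and 4 of 32 for histone methylation and Polycomb. Over all 3865 genes tested so, 921 were lower and 699 higher.

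Of DNA repair genes, double-strand break repair lost 43 of 54 stable bins (79.6%), excision and mismatch repair 48 of 61 (78.7%), and crosslink repair 23 of 26 (88.5%). Lower members numbered 18 of 27, 17 of 29 and 11 of 17, against 49.5% of all tested genes. At equal list length 4 of 18, 3 of 18 and 4 of 11 were lower and 3, 3 and 2 higher. Over all 3865 genes tested so, 921 were lower and 699 higher. Msh6, a mismatch recognition protein, had 21, 20 and 22 bins in WT and 0, 2 and 3 in KO (-3.26, chromosome 17, 87983551 to 87988450), with 17 of 19 stable bins lost. Brca1 had 9, 9 and 8 against 1, 2 and 2 and did not pass with lists of equal length (-0.60) or with scores at or above the median (-1.11). The cell cycle and p53 list lost 32 of 41 stable bins (78.0%) with 12 of 27 lower, and with 0 lower and 2 higher of 14 at equal list length. Among the 12, Mdm2, the ubiquitin ligase of p53, fell from 7, 6 and 6 to 2, 1 and 1, which did not pass with lists of equal length (-0.86).

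Histone and ribosomal protein genes had small lost shares beside the 80.2% of all stable WT bins. Over all tested genes 49.5% were lower. Canonical histone genes lost 1 of 17 stable bins (5.88%), and of 30 tested members 1 was lower, Hist1h2bc. Ribosomal protein genes lost 10 of 33 (30.3%), with 5 of 30 lower, among them Rpl14 and Rpl22 with 2, 2 and 2 bins against none. Both families have near-identical copies that can share reads, so their members are uncertain. Summed over ribosomal protein genes, the bins were 64, 52 and 64 in WT and 36, 47 and 41 in KO. With lists of equal length 4 of 7 stable bins of ribosomal protein genes and 0 of 4 of histone genes were lost, which is too few to place the shares.

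Long noncoding RNAs lost 13 of 32 stable bins (40.6%), but 21 of the 32, with 3 lost, are bins of Malat1. Without Malat1 the list lost 10 of 11 (90.9%), against 80.2% of all stable WT bins. Tug1 had 3, 5 and 7 bins and the imprinted Meg3 3, 3 and 3, with none in KO, while Neat1 had 2, 3 and 3 against 2, 2 and 3. Zinc finger protein genes lost 166 of 194 stable bins (85.6%) with 82 of 143 lower (57.3%) and 7 higher. Over all tested genes 49.5% were lower and 2.17% higher. Of 63 zinc finger genes tested at equal list length 10 were lower and 11 higher, against 921 and 699 of all 3865. Solute carriers lost 158 of 178 (88.8%) with 70 of 120 lower and 4 higher, and with 16 lower and 8 higher of 60 at equal list length, the solute carrier list holding both glucose transporters described above.

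**Figure D5:**
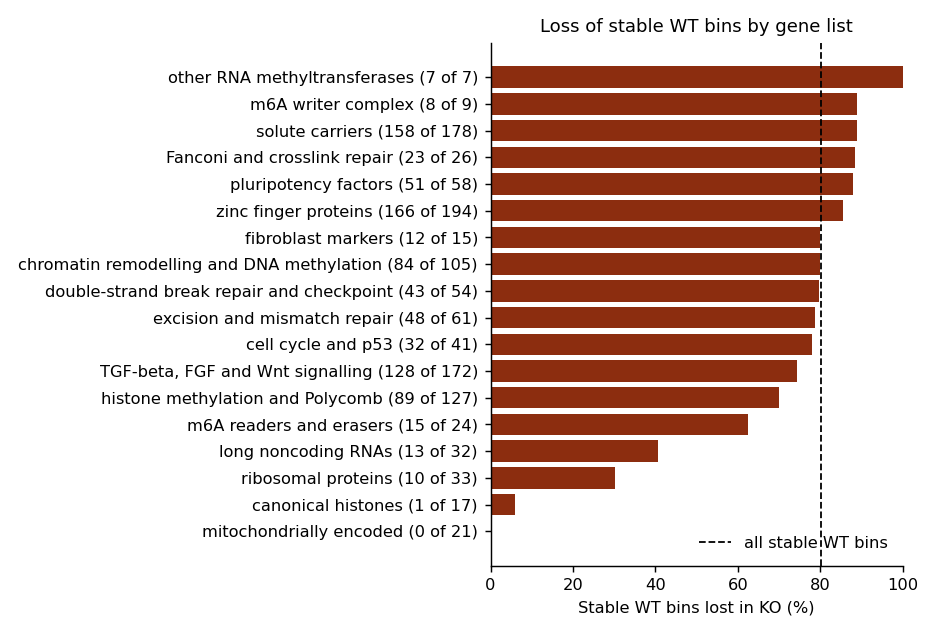
Share of stable WT bins lost in KO (bars, %) for each gene list with at least 7 stable WT bins, with lost and stable bins in brackets. The dashed line marks 80.2%, the share over all stable WT bins. Mitochondrially encoded genes and histones are lowest.

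Mitochondrially encoded transcripts lost none of 21 stable bins. They had 24, 24 and 34 peaks in WT and 40, 32 and 51 in KO, which overlap (exact p = 0.2). Of 9 tested genes 2 were higher: mt-Nd5, a subunit of complex I, with 2, 1 and 2 against 6, 5 and 10, and mt-Cytb, of complex III, with 0, 0 and 2 against 3, 6 and 8. The gene mt-Nd5 did not pass at q under 0.005 (1.04), with scores at or above the median (0.33) or with lists of equal length (1.04).

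The X chromosome stood apart from the autosomes in some measures and not in others. Of 162 stable WT bins on the X, 112 were lost (69.1%), while the share was 77.3% to 86.0% over the 19 autosomes. The X held 1.73% ± 0.0111 of WT peaks and 3.37% ± 0.0423 of KO peaks (SD, n = 3, exact p = 0.1, no overlap), and 3.31% against 1.31% with lists of equal length. Of 189 X genes tested 29.1% were lower and 5.29% higher, against 50.1% and 2.06% on the autosomes. Whole-gene loss by the rule was closer, 28.1% on the X against 31.6% on the autosomes. Of X bins called in all 3 KO lists 31.9% were gained, inside the range of 12.5% to 40.6% over the autosomes. Of X genes called in all 3 KO lists 10% were gained, against 4.75% on the autosomes. Fmr1nb had no bin in WT and 2, 3 and 3 in KO. Bex1 likewise had none against 2, 1 and 3. Both were chosen after their values were seen.

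Values that bear on the X difference were at hand in the other lines. The 3 lines made from the knockout by adding METTL14 back, as wild type, 5RK or 13RK, had 2.83%, 2.69% and 2.90% of their peaks on the X, between KO and WT. Xist had 0, 0 and 1 bins in WT and 2, 0 and 0 in KO. The Y chromosome had calls in both lines: of its 23 stable WT bins 0 were lost and 21 kept. Differences in X dosage, X-linked expression or line history between WT and KO were not tested, since the lists give no expression.

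Markers of other cell types were looked up as well. Of 10 fibroblast markers 4 had a bin. Fn1 fell from 30, 23 and 23 bins to 0, 2 and 3 (-3.51, limma adjusted p = 0.000688), Fbn1 had none against 1, 1 and 2 and was gained (not passed when any 1 WT list was left out), and Col1a1 and Vim were called in at most 2 lists of a line. Summed over the 10 markers the bins were 24 to 31 in WT and 2 to 6 in KO. Of 7 primitive endoderm markers 3 had a bin, at sums of 1 to 4 in WT and 0 to 2 in KO. Of 17 primed and lineage markers 5 had a bin, at 3 to 5 in WT and 0 to 2 in KO. A peak call does not report expression, and in these bulk libraries fewer cells of a type and less RNA per cell cannot be told apart. The part of other cell types in the losses was not tested.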

How the data were processed

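The authors deposited 1 peak list per immunoprecipitated library, without a header, holding bins of 100 nt with an Ensembl gene, an enrichment score, a p-value and a q-value, and each deposited q lay under 0.05. The deposited score ran from 0.31 to 5.48 over the 6 lists, and its scale is not stated. Per the submitters' processing notes, the build was GRCm38 and kallisto 0.43.0 and STAR 2.5.3a were used, in roles that are not stated. The peak caller was not given in the sources used. The first coordinate was read as 0-based and is printed 1-based. Read depth is unknown. Input libraries were not analysed here.

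Bins were matched by position and strand, and genes by identifier. Symbols matched 11684 of 11712 genes (99.8%), RefSeq spans (GRCm38.p6) 10579 and start sequences 8272. List means were compared by two-sided exact permutation of 3 against 3. Bins per gene were fitted with limma 3.58.1 (R 4.3.3) on log2(bins + 1), with a trend of the variance on the mean and a lower limit on each gene's residual variance, equal to 1 list differing by 1 bin. That limit was not part of the design. It was added after both the fit without it and simulated lists had been seen. In the simulation of KO against WT (8814 genes, 200 changed), the fit with the limit called 75, 168 and 200 of the 200 at 0.5, 0.25 and 0 of bins kept, with 7, 13 and 7 unchanged genes called. Without it, 10, 38 and 197 were called, with 121, 125 and 147 unchanged. The simulation drew both lines at WT calling rates, bin by bin, and changed few genes. In the data 3565 of 7199 genes were lower and the KO lists were shorter, so these false calls need not hold there.

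The members, the gene lists and the naming rule were chosen with earlier results of these data known. Genes were named as the lost genes with most WT bins, the lowest log2 differences among genes with a bin in every KO list, the genes with most kept and most gained bins, up to 3 members per list by limma p (20 lists), and 12 genes always. Gene models named Gm or Rik were not named. The start window, and the descriptions by run length, enrichment class, exchange within genes, X and mitochondrial bins, were chosen after values had been seen. Alternatives were a q under 0.005, a score at or above 1.4, the 6328 smallest p per list, calls in 2 or more lists, leaving out each list, the replicate block, other distances from gene starts and ends, a pseudocount of 0.5, no filter on calls, and all 15 lists in the fit. Figures used matplotlib 3.10.9.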

Additional observations from a re-analysis of the deposited data

How the results depend on the processing

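A stricter q under 0.005 left 5398 bins lost, 282 gained, 58 genes gained, 225 with partial loss and 98 higher. A score at or above the median gave 3181, 110, 61, 75 and 78 for the same. Lists of equal length gave 2491 bins lost and 1107 gained, 584 genes lost and 504 gained, 119 with partial loss, 921 lower and 699 higher. Genes with a peak then turned from fewer to 445 more in KO (3816 against 3371). Equal length makes the list totals alike and drops mostly WT calls, so a shift toward balance is built in. The lost share of genes was 27.5% there and 31.5% as deposited, and the gained share 29.5% and 4.89%. Calls in 2 or more lists gave 15899 bins lost and 2133 gained, 2710 genes lost and 364 gained, and 1272 with partial loss. The fit as first designed, with no lower limit on the variance, called 3080 genes lower and 133 higher, against 3565 and 156. Without the filter on calls 99 were higher. Over genes with a mean of at least 3 bins, fewer were tested and 741 were lower and 12 higher. The alternatives on the limit, on the mean and on 4 long loci whose bins lie in other genes were added after seeing the data. Without those loci 8575 bins were lost and 612 gained.

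Leaving out 1 list gave 694 to 1387 bins gained, the highest without KO replicate 1, 9220 to 11597 bins lost, 144 to 222 genes gained and 2060 to 2297 lost. It gave 576 to 880 genes with partial loss, 1141 to 3409 lower and 42 to 74 higher. The lowest counts of lower genes, 1141, 1185 and 1182, came without WT replicate 1, 2 or 3. Genes called only in WT could not meet the filter of 3 lists there, which by itself lowers these counts. Replicate numbers do not pair the lists: over 3 pairs, deviations of same-numbered lists correlated at 0.0060, 0.0039 and -0.0087. With the replicate block 3494 genes were lower and 119 higher. Hspg2 was higher with the block (1.18). The block's exact p for peaks per list was 0.25, the smallest it allows.

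Some named genes that had not passed changed sign, and 4 of these values passed: Esrrb at q under 0.005, Virma and Neat1 at equal length, and Neat1 at the median score. At q under 0.005 Esrrb was at -1.66, Son at -0.11 and Neat1 at 0.58. At the median score Son was at -0.53, Mat2a at 0.11 and Neat1 at 1.06. With equal length Klf4 was at 0.39, Ncl at 0.26, Virma at 1.19, Rbm15 at 0.86, Mat2a at 0.11, Neat1 at 1.252 and Malat1 at 0.049. With 1 list left out Klf4 ran from -0.74 to 0.26, Esrrb from -0.025 to 0.18 and Lama1 from -0.93 to 0.097. The cause of these changes was not tested. Depth, which is unknown, limits what a missing call shows.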
